A study of Zea mays with 18 samples.

Results

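The entries described here are miR156j, miR156k and miR529, guide strands of maize microRNAs that target SPL transcription factor genes, together with miR529*, the passenger (star) strand of the miR529 hairpin. They were taken by name from the deposited tables: the guide entries zma-miR156j and zma-miR156k and every entry whose name starts with zma-miR529. That gave 4 of the 246 entries listed at sufficient phosphate (SP) and 3 of the 207 listed at low phosphate (LP), where miR529* was not among the listed names. miR156j was picked because its reads were far more frequent in leaf than in root, so its difference between the organs is a description and is not tested. None of these entries had the same values as another entry in every library.

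The study made 18 small RNA libraries from leaf and root of seedlings of Q319, a maize inbred line, grown in nutrient solution. The SP plants had 1000 μM KH2PO4, and each organ had 2 libraries on day 0, at the 3-leaf stage, and 2 on day 8, at the 4-leaf stage. The LP plants were moved to 5 μM KH2PO4, with a single library per organ for each of days 0, 1, 2, 4 and 8. Day 0 of that series precedes any day at low phosphate, and the day 8 LP plants were at the 4-leaf stage. Every repeat pooled 15 to 20 plants of 1 inbred line, so the spread between SP libraries is the spread between such pools and may be partly technical. For the SP root libraries taken as day 8 the labels conflict: the titles say day 8, which is used here, and a second label says day 0. The organ libraries are mixtures of cell types, and fewer cells of a type cannot be told apart from less of an RNA in each cell.

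In flowering plants miR156 binds transcripts of SPL (squamosa promoter binding protein-like) genes, and high miR156 holds the shoot in the juvenile phase. As miR156 declines with age SPL proteins accumulate, and they activate miR172, which represses AP2-like genes and marks the adult phase. miR529 is a related microRNA, kept in grasses and many other plants, that targets a subset of the same SPL genes and is best known from the maize and rice inflorescence. miR156j and miR156k are listed apart from the main miR156 guide strands, of which miR156a stands here for the family. In the B73 reference annotation, NAM-5.0, MIR156j, MIR156k and MIR529 each had 0 other microRNA genes among the 10 nearest genes on either side.

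Summed over all listed entries, the SP libraries held 8528196 to 14285855 counts. With identical entries of a family counted once, they held 7353497 to 12799128. The LP libraries had 12885000 to 21385000 clean reads, recovered from the deposited values, which is a different measure. The scaling factors that made the SP libraries comparable (TMM, a trimmed mean of ratios) ranged in leaf from 0.734 to 0.937 and in root from 1.23 to 1.29. Levels between leaf and root therefore depend on this scaling, and ratios of 2 entries within a library do not. SP levels below are TMM-scaled counts per 1000000 (CPM) and LP levels are reads per 1000000 clean reads (RPM). The SP and LP tables were scaled separately, so a level in one is not compared with a level in the other.

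miR156k was the most frequent of these entries and was read at about the same order of size in both organs. Its raw counts in the SP leaf libraries were 79800 and 100165 at the 3-leaf stage (day 0), and 117955 and 102560 at the 4-leaf stage (day 8). The root libraries gave 61826 and 51516 counts at the first stage, and 59210 and 62019 at the second. On the CPM scale these were 9279 and 10631 (9955 ± 956, SD, n = 2) in leaf on day 0, 10500.2 and 11580.2 (11040.2 ± 764) in leaf on day 8, 5030 and 4949 (4989 ± 57.0) in root on day 0, and 5197 and 6884 (6041 ± 1193) in root on day 8. All 4 leaf libraries lay above all 4 root libraries on this scale. Leaf lay above root without overlap for 49.7% of the 149 tested entries on day 0 and 40.3% on day 8. Ordered by mean level, miR156k stood 13th of 197 distinct entries in leaf and 21st in root on both days.

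miR156j was a leaf-rich entry whose root level was low but well above the counting limit. The leaf libraries held 21238 and 26306 raw counts of it on day 0, then 32165 and 34163 on day 8. The root libraries held 445 and 433 on day 0, then 832 and 576 on day 8. The CPM were 2469 and 2792 (2631 ± 228, SD, n = 2), 2863 and 3857 (3360 ± 703), 36.2 and 41.6 (38.9 ± 3.82), and 73.0 and 63.9 (68.5 ± 6.43) in the same order. The leaf and root ranges lay far apart, which is the pattern the entry was chosen for. Mean leaf CPM exceeded that of root 67.6-fold on day 0 and 49.1-fold on day 8, and the fitted log2 differences of 6.08 and 5.62 stood 7th from the highest of the 149 entries tested on each day. By mean level miR156j was 24th of the 197 entries in leaf on day 0 and 57th in root.

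miR529 was rare in every library. The leaf libraries held 88 and 91 counts at the 3-leaf stage, then 59 and 67 at the 4-leaf stage. The root libraries held 24 and 23, then 14 and 16. The CPM were 10.2 and 9.66 (9.95 ± 0.406, SD, n = 2), 5.25 and 7.57 (6.41 ± 1.64), 1.95 and 2.21 (2.08 ± 0.182), and 1.23 and 1.78 (1.502 ± 0.387) in the same order. The 4 groups did not overlap: both leaf groups lay above both root groups, and within each organ both day 0 libraries lay above both day 8 libraries. Separation was common among the 149 tested entries, at 89.3% between organs on day 0 and 78.5% on day 8. Over the 8 days it held for 32.9% of entries in leaf (18.8% lower on day 8) and 57.7% in root (22.8% lower). Neither day change of miR529 passed the test described below.

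miR529* was read 2 and 1 times in leaf on day 0, once in each root library on day 0 and not at all on day 8 in either organ. A count of 0 allows up to 3 counts in a library, so no difference between groups was detectable at this depth, and the entry did not pass the filter of at least 10 counts in at least 2 libraries. Its 5 counts over 8 libraries stood against 382 of the guide, or 1309 star reads per 100000 guide reads. The star of miR156k gave 63 counts, or 9.92 per 100000 guide reads, and that of miR156j gave 5 counts in 2 leaf libraries, or 4.30 per 100000. The guide strand was thus the main product of all 3 hairpins, by the smallest margin for miR529. These counts, and the floors and intervals below, carry counting error only.

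**Figure D1:**
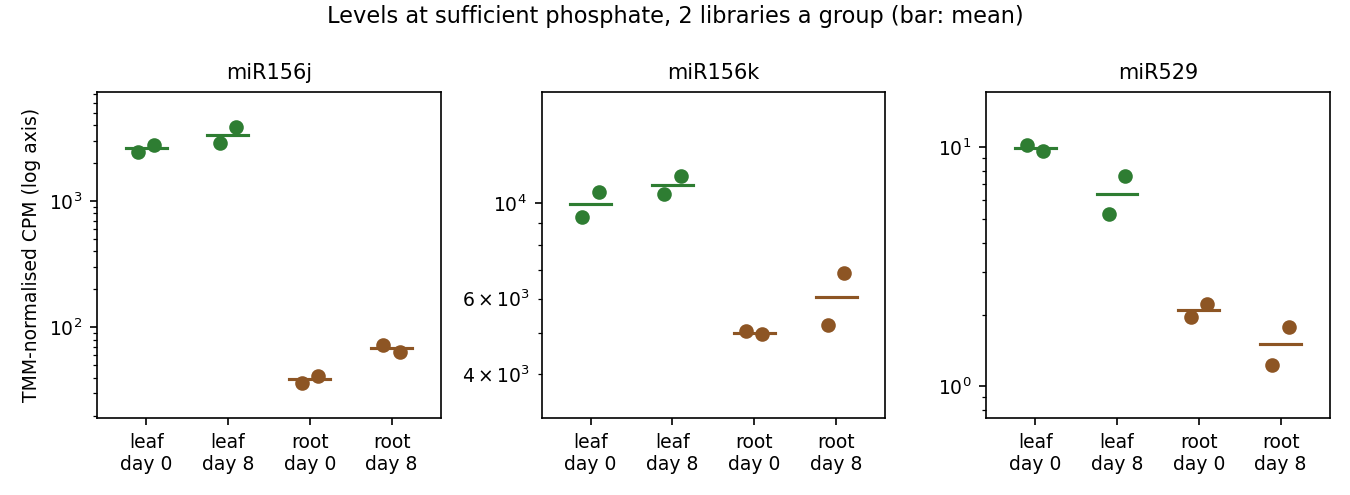
Levels of miR156j, miR156k and miR529 at sufficient phosphate, in TMM-scaled CPM on a log axis, with 1 point per library (2 per organ and day) and a bar at the group mean. Leaf lies above root in each panel, by far the most for miR156j (2631 against 38.9 on day 0) and least for miR156k (9955 against 4989).

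The organ difference could be tested for miR156k and miR529, which were chosen by name. On day 0, edgeR's quasi-likelihood test called 79.9% of the 149 entries in either direction and 43.6% as higher in leaf, so a call is common here. miR156k was higher in leaf by a log2 difference of 1.00 (SE 0.16, edgeR adjusted p = 0.000159) and miR529 by 2.25 (SE 0.31, edgeR adjusted p = 4.615e-05). The median over all tested entries was 0.36, so both lay above the middle of all entries. Their leaf and root libraries did not overlap, as for 89.3% of entries on day 0 (49.7% with leaf higher) and 78.5% on day 8 (40.3% with leaf higher). On day 8, when 75.8% of entries were called, 38.9% as higher and 36.9% as lower, miR156k was higher by 0.87 (SE 0.16, edgeR adjusted p = 0.000406) and miR529 by 2.09 (SE 0.34, edgeR adjusted p = 0.000167), against a median of 0.26.

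These values moved with the scaling. When each SP library was scaled to its listed reads instead of by TMM, the median of all entries moved from 0.36 to -0.41 at day 0 and from 0.26 to -0.34 at day 8, and the day 0 calls went from 65 higher and 54 lower to 41 higher and 69 lower. miR156k was then 0.23 (edgeR adjusted p = 0.132) on day 0 and 0.29 (edgeR adjusted p = 0.0643) on day 8 and was no longer called. miR529 remained higher in leaf under every alternative run, with log2 differences of 1.49 to 2.36 at day 0 and 1.504 to 2.35 at day 8. For the other miR156 guide strands, day 0 and day 8 differed: 8 of 8 were called higher in leaf on day 0, with a median of 0.47, and 2 of 8 on day 8, with a median of -0.01. These counts depended on the scaling and on other settings. With no filter, or with every row as its own entry, 2 of 8 were called on day 0 and 0 of 8 on day 8. The day 0 median was 0.30 to 0.40 when single root libraries were left out. On day 0, 0 of 8 were called with DESeq2 (median 0.13), median-ratio scaling (0.13) or scaling to listed reads (-0.29). On day 8, 0 of 8 were called with DESeq2 or median-ratio scaling (median -0.27 in both), and scaling to listed reads gave 0 higher and 6 lower (median -0.58). The 8 entries have closely similar values and are not independent.

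The change over 8 days at SP, from the 3-leaf to the 4-leaf stage, was not used to choose any of the entries. In leaf none of them passed the test. miR156j was 0.35 on the log2 scale (SE 0.22, edgeR adjusted p = 0.551), a 1.28-fold higher mean on day 8, and the day 8 libraries lay above both day 0 libraries. miR156k was 0.15 (SE 0.16, edgeR adjusted p = 0.834) and its groups overlapped. miR529 was -0.64 (SE 0.28, edgeR adjusted p = 0.259), a mean of 6.41 CPM against 9.95, with no overlap between the groups. Its value was -0.39 without leaf day 8 replicate 1 and -0.92 without replicate 2, neither of which passed. The miR156k value ranged from 0.05 to 0.25 when single libraries were left out. Across all entries 10.1% were called, 15 of 149 and all of them lower on day 8, and 32.9% had groups that did not overlap (14.1% higher and 18.8% lower on day 8).

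Among the 15 lower entries were 8 of 8 other miR156 guide strands, at -0.46 to -0.32. miR156a, the main guide strand, fell from 72042 ± 1680 to 52322 ± 424 CPM (SD, n = 2), which is -0.46 on the log2 scale (SE 0.088, edgeR adjusted p = 0.00575). The value stayed negative under all 17 alternatives, from -0.53 to -0.32, but passed the test in 6 of them (adjusted p from 0.00523 to 0.512). It did not pass with DESeq2, median-ratio scaling, scaling to listed reads or the leaf libraries alone, and in those settings 0 of 8 guide strands were called. miR156j and miR156k had positive values in the same comparison, and their difference from miR156a was not tested there. Of the whole list of other miR156 and miR172 entries, 0 of 19 were called higher, 10 lower and 9 did not pass, and the median of the list was -0.33 against 0.00 over all tested entries. No miR157 name was listed. miR172a, the guide of the adult-phase microRNA, was 331 ± 3.39 CPM on day 0 and 532 ± 162 on day 8, a log2 value of 0.68 that did not pass (edgeR adjusted p = 0.181). The set of leaf calls depended on the scaling: scaling to listed reads gave 7 higher and 6 lower in place of 0 and 15, and moved the median of all entries from 0.00 to 0.11.

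In root 0% of the 149 entries were called by edgeR over the same 8 days, with 22 at an unadjusted p under 0.05, while DESeq2 called 8. miR156j was 0.82 (SE 0.23, edgeR adjusted p = 0.0882), from 38.9 to 68.5 CPM, and both day 8 libraries lay above both day 0 libraries. Groups without overlap were common in root, at 57.7% of entries in either direction, 34.9% higher and 22.8% lower. The miR156j value stood 14th from the highest of 149, missed the threshold here and passed it under 11 of 17 alternatives, with log2 values of 0.58 to 0.97 throughout. DESeq2 gave 0.79 (adjusted p = 0.0322). miR156k was 0.28 (SE 0.16, edgeR adjusted p = 0.454) and miR529 was -0.48 (SE 0.38, edgeR adjusted p = 0.571), both without overlap. Without root day 8 replicate 2 these were 0.02 and -0.78, and over all single libraries left out they ranged from 0.02 to 0.33 and from -0.78 to -0.36. miR156a was 0.02 (edgeR adjusted p = 0.917), and 0 of 19 entries of the miR156 and miR172 list passed in either direction. miR172a was lower on day 8 in root, at 122 ± 6.99 CPM against 188 ± 1.26 on day 0. Its log2 value of -0.63 did not pass (edgeR adjusted p = 0.261).

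**Figure D2:**
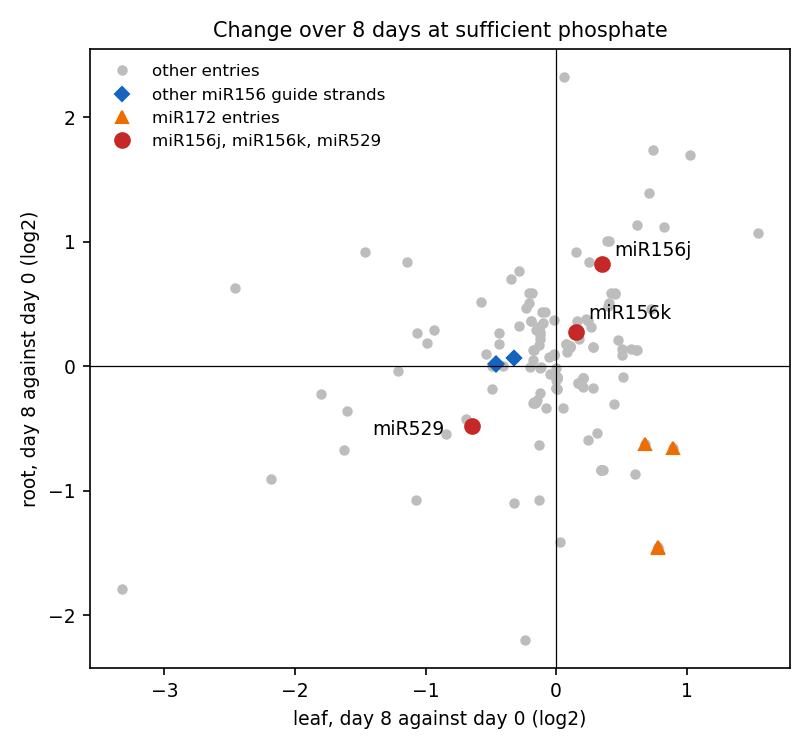
Log2 change from day 0 to day 8 at sufficient phosphate in leaf (horizontal axis) against root (vertical axis), 1 point per tested entry. miR156j (0.35 and 0.82) and miR156k (0.15 and 0.28) lie in the upper right, miR529 (-0.64 and -0.48) in the lower left, and the other miR156 guide strands left of 0 in leaf and near 0 in root.

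Whether the 8-day change differed between leaf and root was tested as an interaction, for which 6.04% of entries were called, 0.671% with the higher change in leaf and 5.37% with the lower. None of the 3 guides passed. The difference, leaf minus root, was -0.46 for miR156j (SE 0.32, edgeR adjusted p = 0.548), -0.13 for miR156k (SE 0.23, edgeR adjusted p = 0.924) and -0.16 for miR529 (SE 0.48, edgeR adjusted p = 0.924). For miR156a the leaf change was lower than the root change by -0.48 (SE 0.12, edgeR adjusted p = 0.0441). Of the list of other miR156 and miR172 entries 0 of 19 were called higher and 6 lower, all 6 of them miR156 guides. miR172a did not pass, at 1.31 (SE 0.37, edgeR adjusted p = 0.0579). The miR156a difference passed in 2 of 16 alternatives, with values from -0.71 to -0.22 and adjusted p from 0.0193 to 0.804. The number of calls over all entries ranged from 0 to 20 when single libraries were left out.

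Ratios to miR156a within a library are free of the scaling between libraries and compare reads, not molecules. At SP miR156j reads in leaf were 3.49% and 3.81% of miR156a reads at day 0, then 5.44% and 7.41% at day 8. Root libraries gave 0.0671% and 0.0835% at day 0, then 0.138% and 0.122% at day 8. The ratio was higher on day 8 in both organs without overlap, by 0.80 on the log2 scale in leaf and 0.80 in root, with n = 2 libraries a group and no test. Of the 148 entries other than miR156a, 64.2% had ratios without overlap in leaf over the 8 days (54.1% higher and 10.1% lower) and 62.8% in root (32.4% higher and 30.4% lower). An exact permutation test of 2 against 2 libraries cannot reach 0.05.

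For miR156k the leaf ratio was 13.1% and 14.5% at day 0, then 19.95% and 22.3% at day 8. It was 9.32%, 9.94%, 9.82% and 13.2% in the 4 root libraries in the order of day. The leaf groups did not overlap (0.61 on the log2 scale) and the root groups did (0.24). miR529 gave 144 and 132 reads per 1000000 miR156a reads in leaf at day 0, then 99.8 and 145 at day 8, which overlapped. In root the day 0 libraries gave 36.2 and 44.4 and the day 8 libraries 23.2 and 34, which did not. Leaf against root, the ratio differed by 0.52 and 0.89 for miR156k and by 1.78 and 2.10 for miR529. For miR156j it differed by 5.61 on both days, which restates the leaf excess it was chosen for. The organs did not overlap in any of these. On this ratio 81.8% of entries did not overlap between the organs on day 0 (39.2% with leaf higher) and 82.4% on day 8 (44.6% with leaf higher).

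miR156j and miR156k differ from each other most in root. miR156j reads were 26.6%, 26.3%, 27.3% and 33.3% of miR156k reads in the 4 SP leaf libraries, and 0.720%, 0.841%, 1.41% and 0.929% in the 4 SP root libraries. At LP the leaf libraries gave 20.6%, 15.3%, 18.9%, 34.2% and 16.6% on days 0, 1, 2, 4 and 8, and the root libraries gave 1.94%, 2.18%, 1.91%, 2.35% and 1.75%. In both tables no leaf library came near the root range. miR156j was chosen for its leaf excess, so this separation is a description and not a test. The share of entries with such a separation was not counted.

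In the LP series miR156j in leaf had no course in 1 direction. Its RPM in leaf was 1770 on day 0, 905 on day 1, 1249 on day 2, 2377 on day 4 and 1278 on day 8. The lowest and highest days lay 2.63-fold apart, which stood 53rd from the smallest of 81 leaf entries with a mean of at least 10 RPM, whose median span was 2.19-fold. In root it was 80.4, 89.9, 82.0, 99.1 and 82.5 RPM, a span of 1.23-fold that was the third smallest of 76 root entries, whose median was 1.74-fold. Leaf lay above root 22.0-fold, 10.1-fold, 15.2-fold, 23.98-fold and 15.5-fold on the successive days, and the fitted log2 difference over all days was 4.04, a description for the reason given above.

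miR156k was the steadiest of the guides at LP. Its leaf RPM was 8582, 5924, 6622, 6944 and 7705 on days 0, 1, 2, 4 and 8, with the lowest value on day 1. In root it was 4154, 4115, 4295, 4210 and 4715, a span of 1.15-fold and the second smallest of the 76 root entries. The leaf span was 1.45-fold, the tenth smallest of 81. For comparison miR156a spanned 2.88-fold in leaf, from 91598 on day 0 to 40900 on day 1 and 31791 on day 8, and 1.28-fold in root.

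miR529 was lower in leaf after 8 days at LP than on any earlier day. Its leaf RPM was 6.22, 8.22, 6.39, 5.51 and 1.94, from 84, 107, 102, 71 and 35 reads. The exact 95% counting interval on day 8 was 1.35 to 2.69 RPM and that on day 4 was 4.30 to 6.95, so the values differed by more than counting error, but each day had 1 library and no repeat. On the log2(RPM + 1) scale day 8 was -1.30 from day 0, and 21.2% of the 151 entries tested were at least 2-fold lower on that scale. The authors' deposited table gives a log2 fold of -1.68 for this comparison. The day 8 plants were also at the 4-leaf stage. At SP miR529 in leaf was likewise lower on day 8, at 6.41 against 9.95 CPM, a change that did not pass. Days at low phosphate and growth stage therefore cannot be told apart in the LP value. In root miR529 was 1.17, 1.31, 1.12, 0.572 and 1.42 RPM, from 19, 28, 23, 10 and 22 reads. The day 4 interval of 0.274 to 1.05 overlapped that of day 0, 0.702 to 1.82. Overlap of intervals is not a test of a difference, and the difference between these single libraries was not tested.

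**Figure D3:**
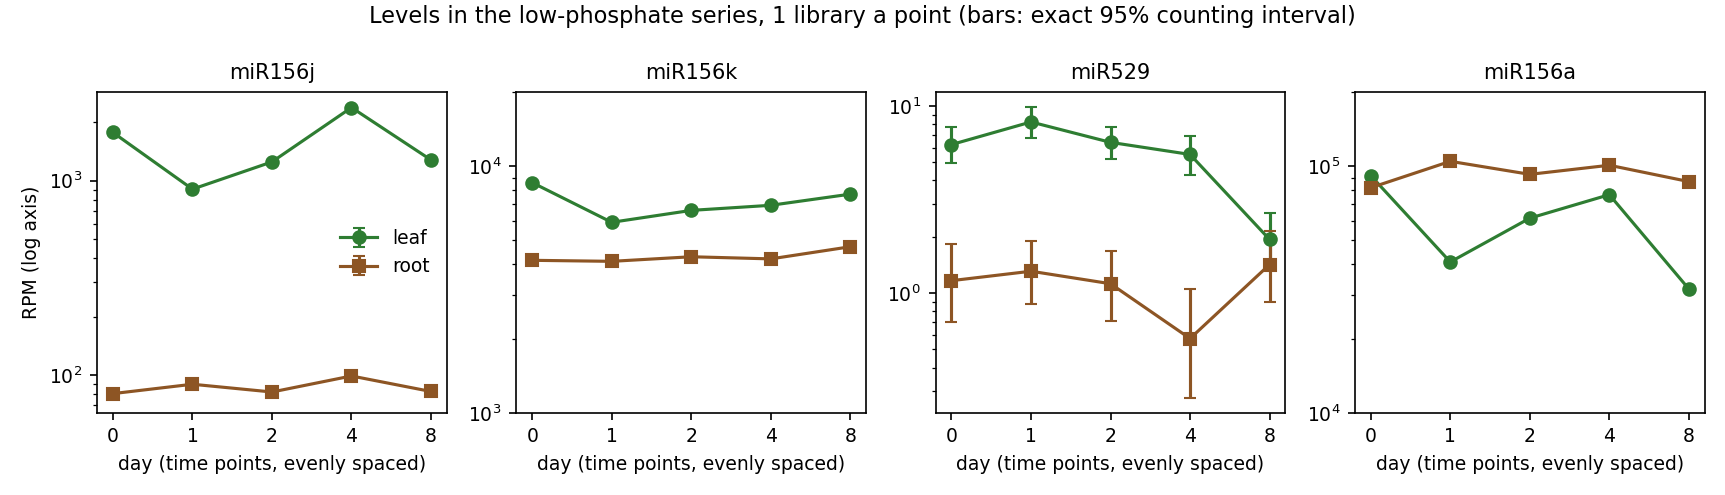
RPM of miR156j, miR156k, miR529 and miR156a by day in the low-phosphate series on log axes, 1 library a point, leaf as circles and root as squares, with exact 95% counting intervals as bars (hidden by the points where narrow). miR529 in leaf stays between 5.51 and 8.22 RPM to day 4 and is 1.94 on day 8, where its interval meets that of root.

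A trend with log2(day + 1) was fitted in limma within each organ, and 0% of the 151 entries were called in leaf (20 at an unadjusted p under 0.05) and 0% in root (28). One limma model over both organs, chosen after the data were seen, called 8 in each organ, none of them miR156j, miR156k or miR529. The leaf slope was 0.03 for miR156j (SE 0.23, limma adjusted p = 1), -0.02 for miR156k (SE 0.0902, limma adjusted p = 0.952) and -0.40 for miR529 (SE 0.18, limma adjusted p = 0.44) per unit of log2(day + 1). The miR529 slope was -0.08 without day 8 and -0.72 without day 0, so its size rested on these libraries, and it passed in neither case (limma adjusted p = 0.881 and 0.186). The root slopes were 0.03, 0.05 and -0.02 for miR156j, miR156k and miR529, with limma adjusted p-values of 0.933, 0.353 and 0.976. The difference in slope between the organs called 0% of entries (9 at an unadjusted p under 0.05), with limma adjusted p of at least 0.912 for all 3. Of the other miR156 and miR172 entries, 0 of 19 passed in either organ, and miR172a went from 209 RPM on day 0 to 497 on day 8 in leaf and from 76.6 to 140 in root.

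Single days were also read against day 0, with no test. A rule of at least 2-fold on log2(RPM + 1), with at least 10 RPM in either library, was met by 18.8%, 3.61%, 26% and 40.4% of leaf entries on days 1, 2, 4 and 8 and by 8.75%, 3.7%, 16.2% and 31.6% of root entries. Neither miR156j nor miR156k met it on any day, and miR529 was below 10 RPM in every library. In leaf miR156j came nearest on day 1, at -0.97. In the same library miR156k was -0.53, miR156a -1.16 and miR529 0.35. On day 4 miR156j was 0.43 while miR156k was -0.31, and on day 8 the 2 were -0.47 and -0.16. In root the 2 entries stayed between -0.01 and 0.30 on every day.

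Leaf against root over the LP days, limma called 67.5% of the 151 entries, 33.1% as higher and 34.4% as lower in leaf. miR156k was higher in leaf by 0.73 (SE 0.14, limma adjusted p = 0.000765) and miR529 by 1.57 (SE 0.31, limma adjusted p = 0.00103), against a median of 0.01 over all entries. Both were higher on 5 of 5 days, and the share of entries for which this held was not counted. In this fit the 5 days of an organ, with 1 library each, served as its repeats. LP values were scaled to clean reads only. No other scaling, on which the miR156k call depended at SP, was run. The miR529 value depends on the pseudocount, at 2.15 with 0.1 and 0.77 with 5, and was called with both. In RPM miR529 was 5.34-fold, 6.28-fold, 5.70-fold, 9.63-fold and 1.36-fold higher in leaf on days 0, 1, 2, 4 and 8, and on day 8 the leaf and root intervals overlapped. Of the other miR156 guide strands at LP, 0 of 8 were called higher in leaf and 6 lower, with a median of -0.72, and miR156a was -0.73 (limma adjusted p = 0.0402). That miR156a call held in 6 of 11 alternatives (adjusted p from 0.0171 to 0.16) and was lost when day 1, 2, 4 or 8 was left out. With the day, which leaf and root share, as a block, miR156a had an adjusted p of 0.0542 in limma and 0 of 8 guide strands were called, while miR156k (limma adjusted p = 0.00716) and miR529 (limma adjusted p = 0.00107) kept their calls. Of all 19 entries of the miR156 and miR172 list 5 were higher, 10 lower and 4 did not pass.

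Within the LP libraries miR156j reads were 1.93%, 2.21%, 2.03%, 3.10% and 4.02% of miR156a reads in leaf on days 0, 1, 2, 4 and 8, and 0.0983%, 0.0859%, 0.0884%, 0.0982% and 0.0952% in root. Leaf ended 1.057 higher on the log2 scale than it began, and root was -0.05. miR156k went from 9.37% on day 0 through 14.5%, 10.8% and 9.06% to 24.2% on day 8 in leaf, a change of 1.37, and from 5.08% through 3.93%, 4.63% and 4.17% to 5.44% in root, a change of 0.10. On day 8 the leaf RPM of miR156a was lower than on day 0, and that of miR156j and miR156k was not higher. miR529 gave 67.9, 201, 104, 71.9 and 60.9 reads per 1000000 miR156a reads in leaf and 14.2, 12.5, 12.1, 5.67 and 16.4 in root, so in leaf its day 8 value lay close to day 0 by this ratio. At SP, over the same 8 days and without low phosphate, the leaf ratio was also higher on day 8 for miR156j and miR156k, so days at low phosphate and growth stage cannot be told apart in these LP values.

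**Figure D4:**
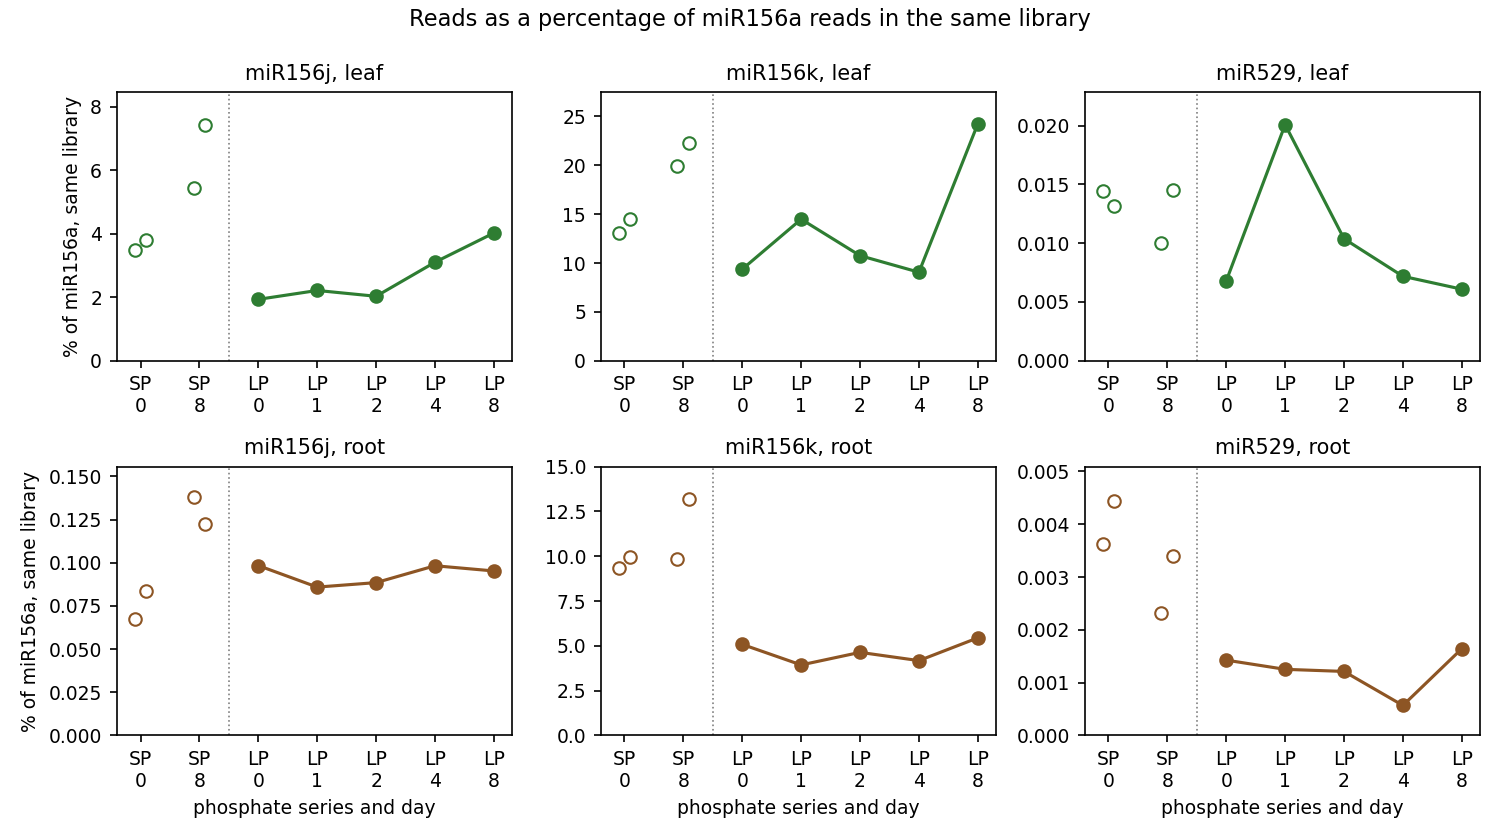
Reads of miR156j, miR156k and miR529 as a percentage of miR156a reads in the same library, leaf above and root below, with open points for the 2 libraries a group at sufficient phosphate and joined filled points for the 1 library a day at low phosphate. In leaf miR156j and miR156k have their highest percentages on day 8 within each series, and in LP root miR156j stays between 0.0859% and 0.0983%.

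Entries with the most similar course over the libraries were found outside the miR156, miR157 and miR529 families, by the root mean square difference of log2 levels after each entry was centred on its own mean. Over the 8 SP libraries miR156j lay nearest miR528a* (0.50), miR528b* (0.50) and miR398b* (0.83), where the median over 87 entries was 2.76. miR156k lay nearest miR396a* (0.14), miR169b (0.24) and miR396c (0.28), with a median of 0.92. miR529 lay nearest miR408b* (0.38), miR166l (0.41) and miR164e (0.42), with a median of 1.01. Leaf against root dominates these measures, and all entries share the same libraries.

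Over the 10 LP libraries, with 71 entries compared, miR156j lay nearest miR396f* (0.21), with the next at 0.89 and a median of 2.35. The nearest to miR156k were miR164e (0.22), miR169b* (0.27) and miR396a* (0.28), so miR396a* was near it in both tables. For miR529 they were miR169a* (0.46), miR166l (0.47) and miR169b* (0.47), and miR166l was near it in both tables.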

How the data were processed

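The members, the list of other miR156, miR157 and miR172 entries, and the tests were chosen with earlier results of these data known. Small RNA tags of 50 nt were sequenced on a HiSeq, cleaned and annotated by the authors, per the series' design text. Which aligner, miRBase release and build were used is not given in the sources at hand. For SP the authors deposited whole numbers, taken to be the raw count of each entry in each library. A suffix in the column names is not explained there. For LP the authors deposited a signal: reads per 1000000 clean reads of the library (RPM), as the design text of the series defines it. The depth of those libraries was recovered from the steps of low values, which were whole within 0.03 reads. From the authors' deposited table, the log2 fold of miR529 in leaf on day 8 is printed. How the authors' deposited p-values were tested is not stated, and none is printed.

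Entries whose values matched in all libraries within a family were kept as 1, leaving 197 SP and 156 LP entries. SP counts were fitted with edgeR 4.0.16 in R 4.3.3 (TMM, robust quasi-likelihood, at least 10 counts in at least 2 libraries, 1 coefficient per group over 8 libraries). The SE with edgeR is |log2 change| over the square root of F, not a fitted error. LP values were fitted with limma 3.58.1 (trended, robust) on log2(RPM + 1), with blanks at 0.5 and at least 1 RPM in at least 2 libraries. This scale understates changes of rare entries. Adjusted p-values are Benjamini-Hochberg values over all tested entries of a contrast, at a threshold of 0.05. Counting intervals are exact (Clopper-Pearson) at 95%. Alternatives included DESeq2 1.42.0, other scalings, filters and pseudocounts, and single libraries left out. Named were all members, miR156a, miR172a, the stars of miR156j and miR156k, and the 3 entries most alike with a mean of at least 10. Reads shared between near-identical miR156 entries make their values uncertain. The main edgeR and limma fits were tested on simulated data, for the change over days in leaf and in root. Changes were planted in leaf only, and were larger than any fitted day change of the 3 guides. In root no change was planted, so only false calls were checked there. Whether changes as small as those of the guides would be found was not tested. The organ contrasts, the differences between organs in change or slope, and the alternatives were not simulated. Figures were drawn with matplotlib 3.10.9.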

Additional observations from a re-analysis of the deposited data

Results flagged for a closer look

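miR156a, the main strand beside which miR156j and miR156k are set, differed between the organs in its change over 8 days at sufficient phosphate: the leaf change minus the root change was -0.48 (edgeR adjusted p = 0.0441). Of the 149 tested entries, 6.04% were called for this difference. In leaf both day 8 libraries of miR156a lay below both day 0 libraries, as for 18.8% of entries. Its groups overlapped in root. The difference passed in 2 of 16 alternatives, with adjusted p from 0.0193 to 0.804 and values from -0.71 to -0.22, and not with DESeq2 or any other scaling run. The same difference did not pass for miR156j, miR156k or miR529.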

How the results depend on the processing

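Depth limits miR529 and the star strands most. The SP tests rest on 2 libraries a group, and the LP days on 1 each. Over all alternatives to the fitted contrasts, 304 of 341 tested values of miR156j, miR156k and miR529 kept their direction and their side of the threshold. The 43 values of the miR156j organ difference have no test. They include 11 LP values, for which 1 library per organ and day gives no spread between replicates. Of the 43, 37 were counted as unmoved, at SP by the spread between replicates. The cause of the other changes was not tested.

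SP leaf calls went from 15 to 6 with median-ratio scaling, 6 with no filter, 8 with DESeq2 and 3 with leaf libraries alone. SP root calls went from 0 to 15 with median-ratio scaling, 11 with scaling to listed reads, 7 with no filter, 8 with DESeq2, 13 with every row its own entry and 14 with TMM outside miR156 (added after seeing the data). In these 6 root settings miR156j passed, at 0.79, 0.77, 0.97, 0.79, 0.82 and 0.75, and in leaf it passed under scaling to listed reads, at 0.47. Interaction calls went from 9 to 4 with median-ratio scaling, 5 with listed reads, 5 with no filter, 4 with DESeq2 and 0 with limma voom. Under listed reads miR156k (0.060) and miR529 (0.011) changed sign there. The miR156j organ difference moved on day 0 to 5.74 with median-ratio scaling and DESeq2 and 5.32 with listed reads, and on day 8 to 5.02 with listed reads and 5.28 with no filter. miR156k lost its organ call with listed reads (0.23 and 0.29).

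With the replicate number as a replicate block, interaction calls were 1, leaf calls 13 and root calls 0, and no call of the 3 guides changed. Whether same-numbered libraries were paired cannot be told from the number alone. Their deviations from the group mean correlated from -0.18 to 0.31 over 149 entries. Leaf with root gave 0.31 on day 0 and -0.11 on day 8. At LP, where leaf and root share the day, the day as a block gave 106 organ calls in place of 102.

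At LP, calls in the leaf trend were 6 with linear day and 8 in 1 model over both organs, and in root 5 with a pseudocount of 0.1, 1 with a pseudocount of 5, 15 with linear day and 8 in 1 model. With linear day miR156k in leaf (0.0090) and miR529 in root (0.0047) changed sign. Against the sum of the other miR156 guides, the LP ratio changes became 0.88 (miR156j) and 1.19 (miR156k) in leaf over 8 days, 5.18 (miR156j) and 1.94 (miR156k) between organs on day 8, and 0.83 (miR156k) on day 0. That sum includes miR156a and entries with closely similar values, so it is not an independent reference.

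Leaving out 1 library at a time gave 0 to 18 calls in SP leaf, 0 to 19 in SP root and 0 to 20 in the interaction. Leaf calls were 0 without leaf day 0 replicate 2, root calls 19 without either leaf day 8 replicate, and interaction calls 0 without either leaf day 0 replicate. miR156j ranged from 0.12 to 0.55 in leaf, passing without leaf day 8 replicate 1 or either root day 8 replicate, from 0.58 to 0.87 in root, passing in 5 of 8, and from 5.85 to 6.15 in the day 0 organ difference. Interaction values ranged from -0.21 to 0.22 for miR156k and from -0.43 to 0.21 for miR529. At LP, calls ranged from 0 to 3 in leaf, 0 to 1 in root and 0 to 2 for the slope difference. Slopes ranged from -0.087 to 0.30 (miR156j, leaf), -0.12 to 0.16 (miR156k, leaf), -0.72 to -0.080 (miR529, leaf), -0.016 to 0.10 (miR156j, root) and -0.19 to 0.044 (miR529, root). Slope differences ranged from -0.10 to 0.32 for miR156j, -0.13 to 0.086 for miR156k and -0.71 to 0.11 for miR529.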
